A study of Mus musculus with 6 samples.

Results

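The choroid plexus is the secretory epithelium of the brain ventricles, and 10 of its genes were followed here through whole brainstem tissue: Ttr, Kl, Folr1, Clic6, Kcne2, Aqp1, Otx2, Kcnj13, Slc4a5 and Prlr. They were chosen by name, and all 10 were found among the 18058 genes of the deposited table and passed the filter on low values (a mean CPM, the read count scaled to library size, of 0.1 or more) with 16762 genes in all. Total RNA came from snap-frozen brainstems of 3 wild type mice (WT, C57BL/6J) and 3 mice labelled Rag1-/- (strain B6.129S7-Rag1tm1Mom/J), all uninjected and 1 month old, each library from a separate mouse. The product of Rag1 is needed to rearrange antigen receptor genes, so Rag1-/- mice have no mature T or B cells. Beyond the question of the study, which transcripts differ between these brainstems, this account asks how the choroid plexus genes varied between the 6 libraries and between the genotypes.

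In the ventricles of the brain, the choroid plexus lies as a folded sheet of epithelium around leaky capillaries, and its cells secrete most of the cerebrospinal fluid. A plexus lies in the fourth ventricle, whose floor is the brainstem, so a dissected brainstem can carry some of this tissue. The epithelium moves sodium, bicarbonate, chloride, potassium and water into the ventricle, loads folate and carrier proteins into the fluid, and takes up hormones from the blood.

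The libraries differed in ways that bear on every result given here. Rag1 itself had 0.236, 0.388 and 0.115 CPM in WT replicates 1, 2 and 3, and 2.6, 4.02 and 2.9 CPM in the libraries labelled Rag1-/-, higher and not lower, so those libraries go by their label throughout. Xist, the RNA of the inactive X chromosome, separated WT replicates 1 and 2 (172 and 177 CPM) from WT replicate 3 (2.93 CPM) and from the 3 labelled Rag1-/- (0.462 to 0.738 CPM). Ddx3y, a gene of the Y chromosome, had 0.283 and 0.215 CPM in the first pair and 45.2 to 56.2 CPM in the remaining 4 libraries. Libraries with high Xist therefore occurred in WT alone, and WT replicate 3 was the only WT library with low Xist. Estimated depth was 31600000 to 46400000 reads a library. The lowest value of any of the 10 genes, for Kcne2 in WT replicate 3, stood for about 77 reads, a counting error of about 11%. In bulk tissue, fewer epithelial cells and less RNA per cell cannot be told apart.

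Ttr encodes transthyretin, the carrier of thyroid hormone and of the retinol-binding protein complex, and is the transcript by which choroid plexus is usually recognised. Ttr (chromosome 18, 20665250 to 20674326, plus strand, mm10) had 909, 1158 and 444 CPM in WT replicates 1, 2 and 3 and 514, 582 and 544 CPM in replicates 1, 2 and 3 labelled Rag1-/-. WT replicates 1 and 2 lay above all other libraries, and WT replicate 3 lay below all 3 libraries labelled Rag1-/-. The mean was 837 ± 363 CPM in WT and 546 ± 34.0 CPM in the 3 labelled Rag1-/- (SD, n = 3 each). The spread was thus 43.3% of the mean in WT and 6.22% in the libraries labelled Rag1-/-. From the lowest to the highest library Ttr ranged over 2.61-fold, and its share of the library total ran from 0.0444% to 0.116%. By CPM it was the gene with rank 45 in WT replicate 2 and rank 202 in WT replicate 3. The log2 fold change (libraries labelled Rag1-/- minus WT, on log2(CPM + 0.1)) was -0.51, with a standard error of 0.29 and an adjusted p of 0.520 in limma-trend. An exact permutation test, two-sided, gave p = 0.4, where 3 samples against 3 cannot go below 0.1.

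**Figure D1:**
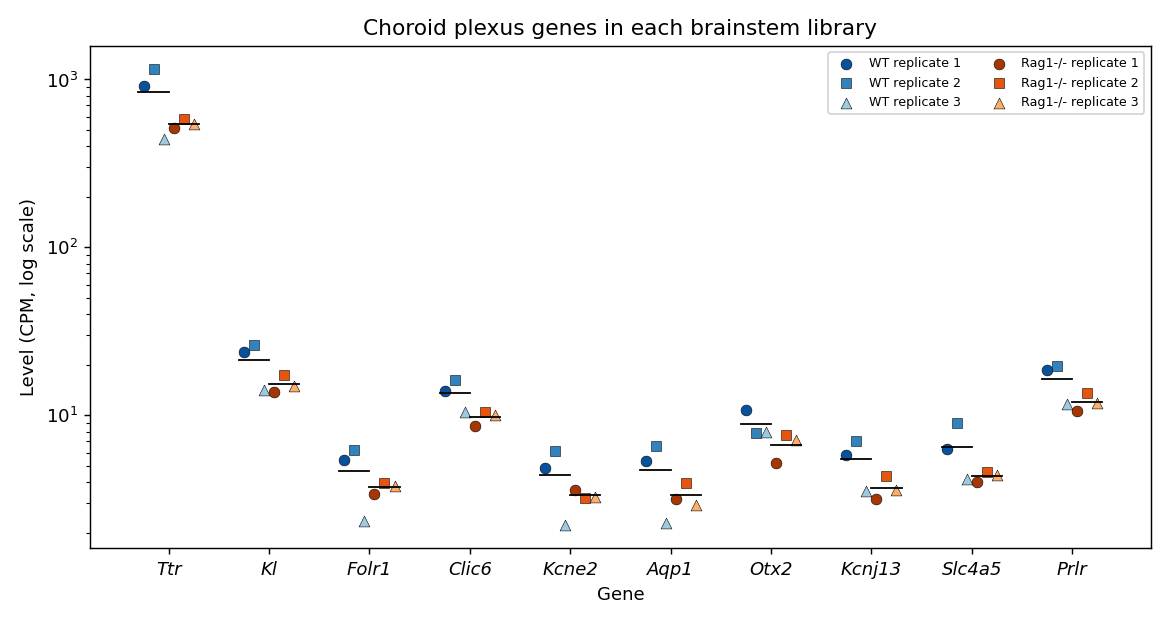
The level of each of the 10 genes (CPM, log axis) is plotted for each of the 6 libraries, with blue points for WT, orange points for libraries labelled Rag1-/- and a short line for the mean of each genotype. For 9 of the 10 genes WT replicates 1 and 2 are the highest points, while WT replicate 3 lies among or below the libraries labelled Rag1-/-.

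Receptors and hormone-responsive proteins of the epithelium varied in the same libraries. Kl encodes klotho, the co-receptor that lets FGF receptors respond to the phosphate hormone Fgf23, and it is also shed into the cerebrospinal fluid. Kl (chromosome 5, 150952607 to 150993817, plus strand) had 23.8, 26.2 and 14.2 CPM in WT replicates 1, 2 and 3 and 13.7, 17.5 and 15.0 CPM in the 3 labelled Rag1-/-. WT replicate 3 lay inside the range of the latter, and the genotypes overlapped. Prlr, the prolactin receptor (chromosome 15, 10177238 to 10349180, plus strand), was at 18.5, 19.6 and 11.6 CPM in WT and at 10.6, 13.5 and 11.9 CPM in the 3 labelled Rag1-/-. Here too WT replicate 3 could not be told from the libraries labelled Rag1-/-. Folr1 (chromosome 7, 101858331 to 101870788, minus strand) encodes folate receptor alpha, which carries folate across the epithelium into the fluid. It was at 5.45, 6.2 and 2.36 CPM in WT and at 3.41, 3.96 and 3.79 CPM in the 3 labelled Rag1-/-, so that WT replicate 3 was the lowest library of all. The log2 fold changes were -0.43 for Kl, -0.43 for Prlr and -0.21 for Folr1, with adjusted p of 0.463, 0.429 and 0.812 in limma-trend.

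Among the genes of ion and water transport, Slc4a5 encodes a sodium bicarbonate cotransporter of the ventricular membrane. Slc4a5 (chromosome 6, 83237375 to 83304945, plus strand) had 6.3, 8.98 and 4.17 CPM in WT replicates 1, 2 and 3 and 4.01, 4.59 and 4.41 CPM in the 3 labelled Rag1-/-. Kcnj13, an inward rectifier potassium channel (chromosome 1, 87384577 to 87394729, minus strand), was at 5.81, 7.04 and 3.56 CPM in WT and at 3.18, 4.37 and 3.59 CPM in the 3 labelled Rag1-/-. In both genes WT replicate 3 fell within the range of the libraries labelled Rag1-/-, and WT replicates 1 and 2 lay above it. Kcne2 encodes the accessory subunit that pairs with the potassium channel Kcnq1 in this epithelium. Kcne2 (chromosome 16, 92292389 to 92298133, plus strand) had 4.86, 6.14 and 2.21 CPM in WT and 3.61, 3.23 and 3.27 CPM in the 3 labelled Rag1-/-. Aqp1, the water channel of the ventricular membrane (chromosome 6, 55336299 to 55348555, plus strand), was at 5.36, 6.61 and 2.27 CPM in WT and at 3.18, 3.96 and 2.93 CPM in the 3 labelled Rag1-/-. Kcne2 and Aqp1 were lowest in WT replicate 3 and highest in WT replicate 2, and Aqp1, with 2.91-fold between these, had the widest range of the 10 genes. Clic6, a chloride intracellular channel protein (chromosome 16, 92498147 to 92541241, plus strand), was at 13.9, 16.3 and 10.4 CPM in WT and at 8.61, 10.5 and 10.1 CPM in the 3 labelled Rag1-/-. WT replicate 3 again lay inside the range of the libraries labelled Rag1-/-. The log2 fold changes of these 5 genes lay between -0.51 for Kcnj13 and -0.26 for Kcne2, and that of Clic6 was -0.45 with a standard error of 0.15 and an adjusted p of 0.372 in limma-trend.

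Otx2 stood apart from the other 9 genes. It encodes a homeodomain transcription factor that the choroid plexus needs for its development and upkeep, and it is also used in the retina, the pineal gland and parts of the brain. Otx2 (chromosome 14, 48657677 to 48667644, minus strand) had 10.7, 7.86 and 7.99 CPM in WT replicates 1, 2 and 3 and 5.23, 7.6 and 7.17 CPM in the 3 labelled Rag1-/-. It was the only gene of the 10 whose genotypes did not overlap, and the only one highest in WT replicate 1. The gap between the lowest WT library and the highest library labelled Rag1-/- was narrow, 7.86 against 7.6 CPM, and smaller than the counting error of Otx2, which was 7.4% at its lowest library. Over all tested genes, 14.4% had genotypes that did not overlap with lower values in the libraries labelled Rag1-/-. Higher values without overlap were found for 0 of the 10 genes and for 3.98% of all tested genes. The mean of Otx2 was 8.86 ± 1.62 CPM in WT and 6.67 ± 1.27 CPM in the 3 labelled Rag1-/- (SD, n = 3 each). Its log2 fold change was -0.41 with a standard error of 0.17, an unadjusted p of 0.0376 and an adjusted p of 0.410 in limma-trend, and p was 0.1 in the exact permutation test (two-sided), the smallest it allows.

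Levels of different genes can be compared only per length of transcript. Per kb of the longest coding GENCODE M21 transcript with a RefSeq identifier, Ttr averaged 583 ± 236 CPM per kb over the 6 libraries (SD, n = 6). The other 9 genes had means between 1.06 CPM per kb for Slc4a5 and 3.62 CPM per kb for Kcnj13. Of these, Kcnj13, Kl, Folr1, Clic6 and Otx2 lay between 3.0 and 3.62 CPM per kb, each with an SD between 0.684 and 1.2 CPM per kb. These SDs are the spread between libraries and do not give the order of genes within a library. Kcnj13 was above Clic6 in each of the 6 libraries, while Kcnj13 and Kl changed places between libraries. Kcne2 (2.3 CPM per kb), Aqp1 (1.54 CPM per kb) and Prlr (1.44 CPM per kb) followed, with SDs of 0.824, 0.624 and 0.385 CPM per kb. Kcne2 lay above Aqp1 in each of the 6 libraries, and Aqp1 and Prlr changed places between libraries. For Prlr the place depends on the transcript, since 12.0 CPM per kb results with its shortest coding transcript of 1190 bases in place of the longest of 9900. Otx2 likewise has 4.55 CPM per kb with its shortest coding transcript of 1708 bases, above Kcnj13.

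Across the genotypes, 0 of the 10 genes passed an adjusted p of 0.05 in limma-trend, where 0.0477% of all tested genes did (8 genes). All 10 log2 fold changes were negative, from -0.51 to -0.21 with a median of -0.43, and 67.7% of all tested genes were negative with a median of -0.05. With an unadjusted p of at most 0.05, 3 of the 10 were lower in the libraries labelled Rag1-/- (Clic6, Otx2 and Prlr), where 9.29% of all tested genes were, and 0 were higher (2.27% of all). With quantile normalization 3.82% of all tested genes were lower and 5.1% higher, and 1 of the 10 was lower. Adjusted p ran from 0.372 for Clic6 to 0.812 for Folr1. The result turned on single WT libraries. Without WT replicate 3, all 10 genes were lower at an unadjusted p of at most 0.05, where 9.31% of the 16721 genes tested in that fit were. Their log2 fold changes lay between -0.91 and -0.48, and Ttr, as 1 of 24 genes, passed with an adjusted limma-trend p of 0.0167. Without WT replicate 2, Folr1 and Kcne2 changed sign (0.045 and 0.034 on the log2 scale) and 1 gene had an unadjusted p of at most 0.05 (9.73% of all genes were lower in that fit). The count was likewise 1 without WT replicate 1 (7.09% of all), and it was 0 without replicate 1 labelled Rag1-/- (5.18% of all).

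Adding Xist status (above or below 100 CPM) to the model compares the genotypes among libraries with low Xist, where WT is represented by WT replicate 3 alone. Its p-values take the spread from the other libraries and assume that WT replicate 3 varies as they do, so they compare 1 WT library, not WT, with the libraries labelled Rag1-/-. In that fit 8 of the 10 log2 fold changes turned positive, and those of Clic6 (-0.10) and Otx2 (-0.28) stayed negative. The values were 0.63 for Folr1, 0.58 for Kcne2, 0.53 for Aqp1 and 0.30 for Ttr, each with an unadjusted p of at most 0.05, where 3.96% of all tested genes were higher. At the same threshold 0 of the 10 were lower, against 12.3% of all tested genes. None of the 10 had an adjusted p under 0.05 in limma-trend, and the lowest was 0.115 for Folr1. The sign of the difference for these 8 genes thus depended on which WT libraries were set against the libraries labelled Rag1-/-.

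**Figure D2:**
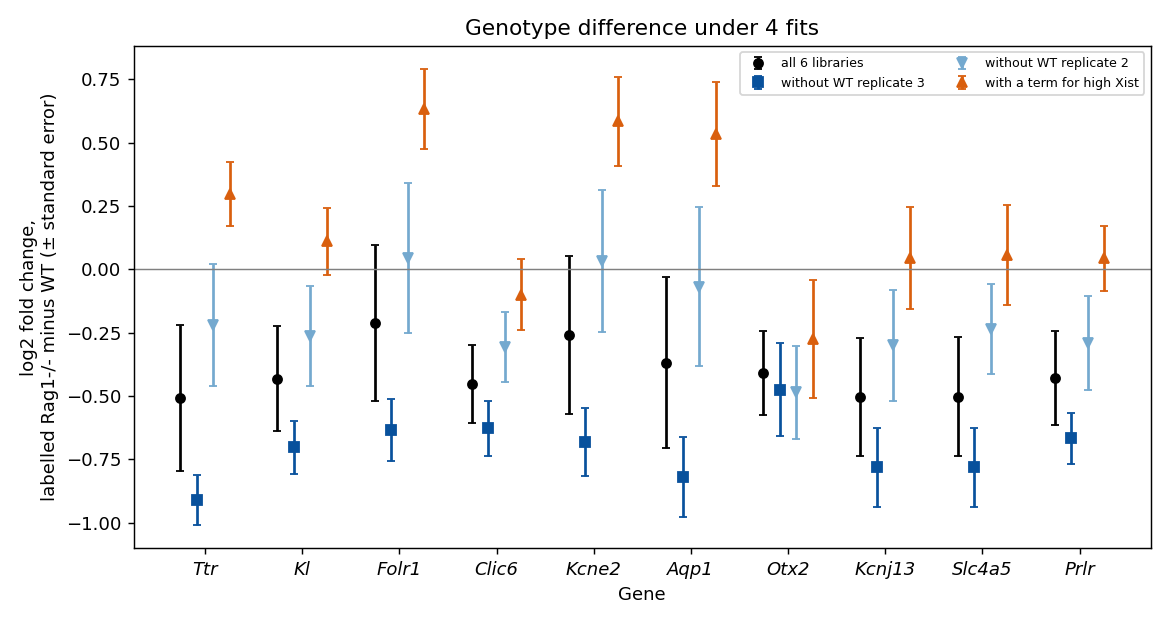
The log2 fold change of each gene (libraries labelled Rag1-/- minus WT, log2(CPM + 0.1), bars for standard errors) is plotted for all 6 libraries, without WT replicate 3, without WT replicate 2, and with Xist status (above 100 CPM) in the model. Values lie between -0.91 and -0.48 without WT replicate 3 and between -0.28 and 0.63 with the Xist term, while Otx2 moves least.

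For most of these genes the WT libraries differed more among themselves than the libraries labelled Rag1-/- did. The SD of log2(CPM + 0.1) was at least 2 times as large in WT as in the libraries labelled Rag1-/- for 9 of the 10 genes, the exception being Otx2, and for 23.8% of all tested genes. The median SD of the 10 genes was 0.521 in WT and 0.161 in the libraries labelled Rag1-/-, beside 0.0999 and 0.088 over all tested genes. In 9 of the 10 genes WT replicates 1 and 2 both exceeded the other 4 libraries, a pattern that 13.1% of all tested genes had. WT replicate 3 was below all libraries labelled Rag1-/- for 4 genes (Ttr, Folr1, Kcne2 and Aqp1), inside their range for 5 and above it for Otx2. The Xist term, which sets WT replicates 1 and 2 against WT replicate 3, was positive with an unadjusted p of at most 0.05 for 9 of the 10 genes, where 5.31% of all tested genes were. It was 1.21 for Ttr (standard error 0.13), 1.27 for Folr1 (standard error 0.17) and 1.27 for Kcne2 (standard error 0.19) on the log2 scale. These 3 genes had adjusted p of 0.0185, 0.0385 and 0.0489 in limma-trend, a threshold that 0.0835% of all tested genes passed. For Otx2 the term was 0.20 with an adjusted p of 0.801. The term rests on 1 WT library with low Xist, whose spread is assumed to equal that of the others, so that its p-values describe that library and Xist status and any other property of that library cannot be told apart.

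Of the other 9 genes, 8 followed Ttr closely from library to library. Over the 6 libraries, Pearson's r with Ttr (on log2(CPM + 0.1), a description without a test) was between 0.93 and 0.97 for 8 of the other 9 genes, and 1.59% of the 16761 other tested genes reached 0.9. Slc4a5, Kl and Aqp1 had ranks of 22, 23 and 28 among these genes. Folr1 (r = 0.95) followed the order of Ttr exactly, with a Spearman's rho of 1.0. Otx2 had an r of 0.50 and a rank of 3727. Much of this likeness rests on WT replicates 1 and 2, since all points share 6 libraries and these libraries lay apart from the others. Over the 4 libraries without them, r stayed at 0.98 for Folr1 and 0.93 for Aqp1, lay between 0.54 and 0.78 for Kl, Slc4a5, Kcnj13, Prlr and Kcne2, and was 0.03 for Clic6 and -0.11 for Otx2.

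**Figure D3:**
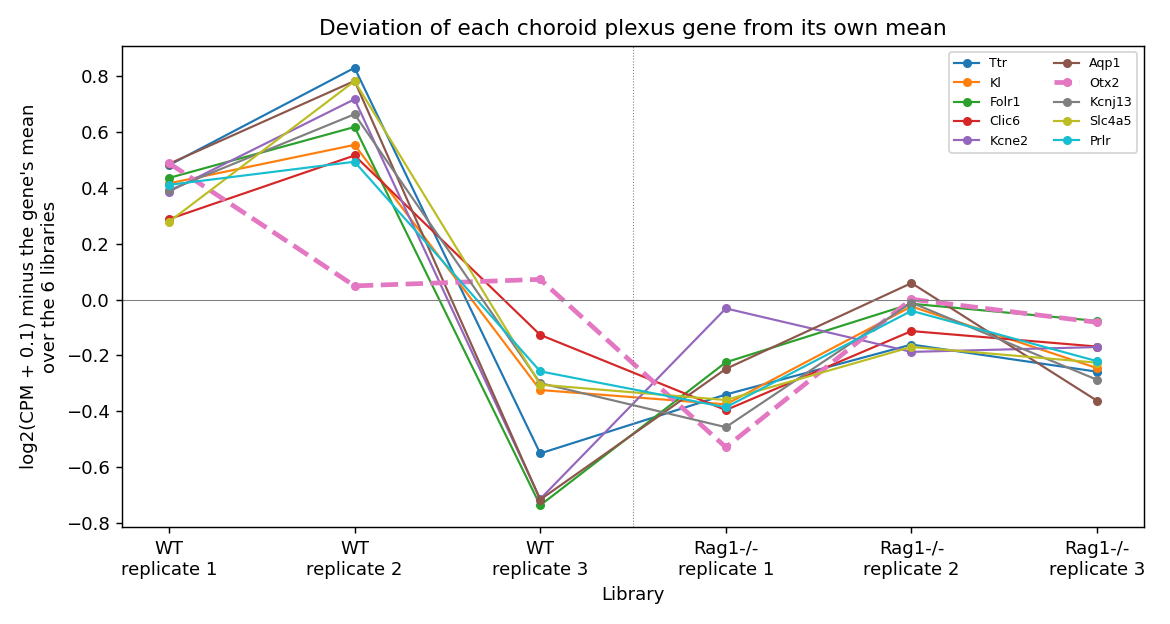
Each line joins the values of 1 gene, as log2(CPM + 0.1) minus that gene's mean over the 6 libraries. All lines but that of Otx2 (dashed) are highest at WT replicate 2 and drop at WT replicate 3, and the libraries labelled Rag1-/- lie close together.

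Relative to Ttr in the same library, the other genes varied less than their own levels did in 8 of 9 cases, again with the exception of Otx2. Per 1000 CPM of Ttr, Kl was at 22.6 to 31.9 CPM, Folr1 at 5.31 to 6.96 CPM, Kcne2 at 4.99 to 7.03 CPM and Aqp1 at 5.12 to 6.81 CPM. The ratio of Aqp1 thus ranged over 1.33-fold, while its level ranged over 2.91-fold. Slc4a5 was at 6.93 to 9.39 CPM per 1000 CPM of Ttr, Kcnj13 at 6.08 to 8.03 CPM, Prlr at 16.9 to 26.1 CPM and Clic6 at 14.1 to 23.4 CPM. For 6 of the 9 genes (Kl, Clic6, Otx2, Kcnj13, Slc4a5 and Prlr) the ratio was highest in WT replicate 3, the library with the least Ttr. The ratio of Otx2 ran from 6.79 CPM in WT replicate 2 to 18.0 CPM in WT replicate 3, a 2.65-fold range that exceeded the 2.05-fold range of its level. The SD of the log2 ratio was 0.469 for Otx2 and 0.141 to 0.257 for the other 8 genes.

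**Figure D4:**
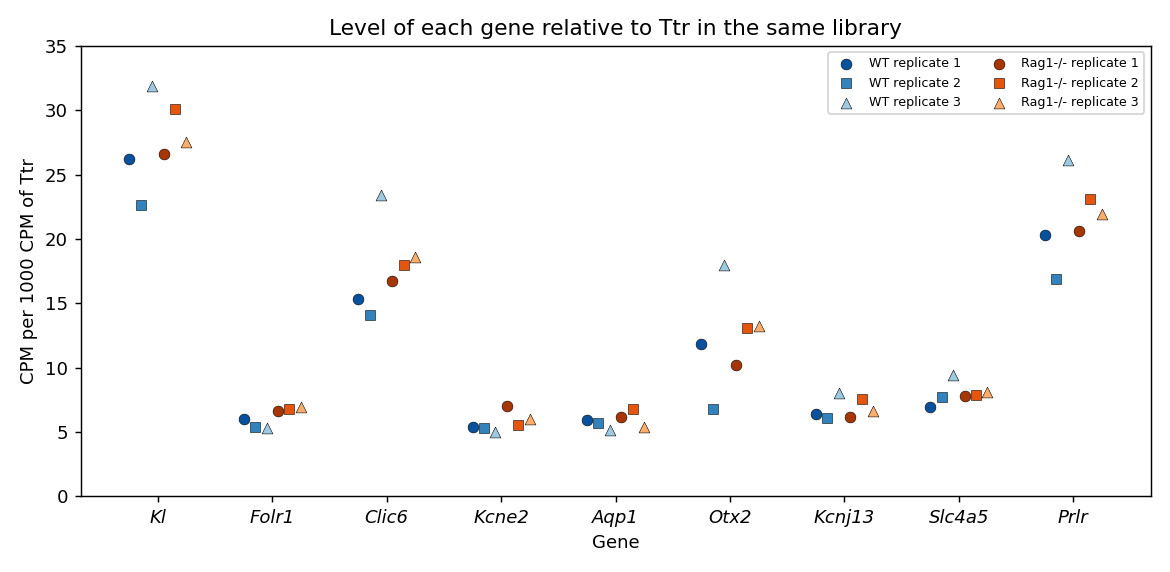
The CPM of each gene per 1000 CPM of Ttr in the same library is plotted for the 6 libraries on a linear axis. Folr1, Kcnj13, Aqp1, Slc4a5, Kl and Kcne2 keep a ratio within 1.31- to 1.41-fold, while the ratio of Otx2 spreads over 2.65-fold with WT replicate 3 highest.

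Since 8 genes moved with Ttr and Otx2 did not, the starts of genes of both kinds were examined in RefSeq sequence (GRCm38.p6). Of the 10 genes, 7 were matched to promoter windows, with 13 annotated starts, while Ttr, Folr1 and Clic6 had no matched window. The windows were the 250 bases before each start. Shown here are the 2 genes most like Ttr and Otx2, at the starts that equal the deposited gene starts, each 5′ to 3′ on the strand of the gene, with matches to the OTX motif (TAATCC), the LIM homeodomain motif (TAATTA), the forkhead motif (TGTTTAC) and the TATA box (TATAAA), on either strand, in capitals.
Slc4a5, chr6:83237125-83237374, plus strand: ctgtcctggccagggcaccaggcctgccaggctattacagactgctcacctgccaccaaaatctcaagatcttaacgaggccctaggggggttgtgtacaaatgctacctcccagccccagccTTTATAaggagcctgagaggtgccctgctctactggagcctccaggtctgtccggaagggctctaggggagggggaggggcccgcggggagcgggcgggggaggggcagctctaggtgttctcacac
Kl, chr5:150952357-150952606, plus strand: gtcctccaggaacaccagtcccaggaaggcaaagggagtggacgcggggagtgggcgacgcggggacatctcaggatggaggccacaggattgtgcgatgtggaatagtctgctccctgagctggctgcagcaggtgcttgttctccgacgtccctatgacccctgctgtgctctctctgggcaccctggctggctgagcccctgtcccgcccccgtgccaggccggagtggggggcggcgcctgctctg
Otx2, chr14:48667645-48667894, minus strand: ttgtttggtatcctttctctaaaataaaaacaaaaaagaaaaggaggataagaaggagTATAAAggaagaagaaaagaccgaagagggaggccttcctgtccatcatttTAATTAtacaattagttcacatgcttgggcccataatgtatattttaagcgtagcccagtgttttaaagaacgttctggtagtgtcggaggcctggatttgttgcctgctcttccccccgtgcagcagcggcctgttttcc
The OTX motif was present in 1 of the 13 windows, that of an internal start of Otx2 itself (not shown), and in 6.25% of the 32851 windows of all RefSeq genes. The LIM homeodomain motif was in 2 of 13 windows, both of Otx2, against 4.84% of all. The forkhead motif occurred in 1, a start of Prlr (3.17% of all), and the TATA box in 3, of Kcnj13, Otx2 and Slc4a5 (12.4% of all). The window of Kl held none of these 4 motifs. The window of Slc4a5 overlaps an exon of a noncoding Slc4a5 transcript in GENCODE M21. A further motif, the E-box (CANNTG, not capitalised here), was in 11 of 13 windows and in 66.2% of all windows. The E-box was the only motif of the 5 found in all 6 matched genes that followed Ttr, and Otx2 had it too, also in the window shown. These letters in windows of this length say nothing of binding.

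Kcne2 and Clic6 lie near each other on chromosome 16, with 4 genes between them in the deposited table. The 3 of these that were tested had low r with Ttr. Smim11 (92301303 to 92313041, plus strand) had 7.24 to 7.52 CPM in WT and 6.29 to 8.35 CPM in the 3 labelled Rag1-/-, with an r with Ttr of 0.08, beside 0.95 for Kcne2 and 0.93 for Clic6. Rcan1 (92391951 to 92466169, minus strand), which encodes an inhibitor of calcineurin, was at 37.7 to 39.3 CPM in WT and 35.7 to 37.8 CPM in the 3 labelled Rag1-/- (r = 0.16). The noncoding 2410124H12Rik had an r of -0.15 at 0.0867 to 0.431 CPM, and 1700048M11Rik, which overlaps Smim11, was under the filter and not tested.

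Other genes of the choroid plexus epithelium split into those that moved like Ttr and those that did not. Of a list of 22, all were tested, 20 had negative log2 fold changes between the genotypes, and the median was -0.22. In 10 of the 22, WT replicates 1 and 2 exceeded the other 4 libraries, r with Ttr was at least 0.9 and the Xist term had an unadjusted p of at most 0.05. Taken singly, these were met by 13.1%, 1.59% and 5.31% of all tested genes. Among them, and named after its values were seen, was Sostdc1, a secreted antagonist of BMP and Wnt signals, with 7.72, 7.8 and 4.4 CPM across WT replicates 1, 2 and 3 and 4.53 to 5.61 CPM in the 3 labelled Rag1-/-. Cldn2, a claudin of leaky tight junctions and likewise named afterwards, was at 3.75, 4.07 and 2.01 CPM in WT and 2.08 to 3.23 CPM in the 3 labelled Rag1-/-. Enpp2, which encodes autotaxin and is also abundant in oligodendrocytes, was at 653, 759 and 487 CPM in WT and 572 to 629 CPM in the 3 labelled Rag1-/-.

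Between the genotypes 6 of the 22 had an unadjusted p of at most 0.05. Of these, 5 were lower in the libraries labelled Rag1-/- and 1 higher, against 9.29% and 2.27% of all tested genes, and 0 had an adjusted p under 0.05 (the lowest was 0.268). Krt8 and Krt18, a keratin pair of simple epithelia, had log2 fold changes of -0.93 and -0.60. Krt8 had 0.873, 0.797 and 0.805 CPM in WT replicates 1, 2 and 3 and 0.376, 0.475 and 0.313 CPM in the 3 labelled Rag1-/-, so that WT replicate 3 stood with the other WT libraries. Slc13a4, a sulfate transporter, was highest in WT replicate 3 at 15.8 CPM and had a log2 fold change of -0.58. Ace, the angiotensin-converting enzyme, was at 37.2 to 41.1 CPM in WT and 32.1 to 34.3 CPM in the 3 labelled Rag1-/-, and Wfdc2 was at 0.732 to 0.805 and 0.427 to 0.607 CPM. Col9a3, a collagen chain, was the gene with higher values, at 24.3 to 25.4 CPM in the 3 labelled Rag1-/- against 21.2 to 22.0 CPM in WT. Without WT replicate 3, 15 of the 22 had an unadjusted p of at most 0.05, 14 of them lower and 1 higher, in a fit where 9.31% of all genes were lower and 2.33% higher at that p.

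Among transporter genes that the epithelium shares with neurons and glia, r with Ttr was at least 0.9 for 1 of 15, against 1.59% of all tested genes. The Xist term was positive at an unadjusted p of at most 0.05 for 4 of 15 (Car2, Car12, Car14 and Trpv4), against 5.31% of all. Of 15 genes of ion transport into the cerebrospinal fluid, 2 were lower at an unadjusted p of at most 0.05 (Slc4a10, a sodium-dependent bicarbonate transporter, and the potassium channel gene Kcna3), 0 were higher, and 9.29% of all tested genes were lower. The median log2 fold change was -0.06, close to that of all tested genes. Slc4a10 was at 88.6, 89.3 and 90.4 CPM in WT and at 66.0, 85.6 and 71.0 CPM in the 3 labelled Rag1-/-, which gives a log2 fold change of -0.28 and an adjusted p of 0.343 in limma-trend. Slc12a2, the sodium-potassium-chloride cotransporter, was at 195 to 231 CPM in WT and 194 to 225 CPM in the 3 labelled Rag1-/-. The gene with r of 0.9, named after its values were seen, was the carbonic anhydrase gene Car12, at 6.21, 7.9 and 3.62 CPM across WT replicates 1, 2 and 3 and 4.22 to 6.05 CPM in the 3 labelled Rag1-/-.

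Genes for proteins that work with the products of the 10 genes were listed as partners. Of 20, 6 were lower in the libraries labelled Rag1-/- at an unadjusted p of at most 0.05, 0 were higher, and 0 had an adjusted p under 0.05, with a median log2 fold change of -0.08. Over all tested genes 9.29% were lower and 2.27% higher. Among them were Slc5a3, Slc19a1, Stat5b, Cish and Prl. Slc5a3, the myo-inositol transporter gene whose product forms complexes with Kcne2 and potassium channels, was at 42.8 to 48.2 CPM in WT and 34.3 to 40.0 CPM in the 3 labelled Rag1-/-, a log2 fold change of -0.30. On the prolactin side, Cish, a feedback inhibitor that STAT5 induces, was at 6.75 to 6.89 CPM in WT and 5.2 to 5.86 CPM in the 3 labelled Rag1-/- (log2 fold change -0.32). Stat5b, which acts downstream of Prlr, was at 44.4 to 54.2 and 41.3 to 43.7 CPM. Other genes of this pathway did not pass, with log2 fold changes of 0.04 for the kinase gene Jak2, -0.06 for Stat5a and 0.07 for Socs2, a further feedback inhibitor. Slc19a1, the reduced folate carrier, was at 14.3 to 16.2 CPM in WT and 12.7 to 14.0 CPM in the 3 labelled Rag1-/-. Fgfr1 and Fgfr3, receptors of the fibroblast growth factors, had log2 fold changes of -0.12 and 0.00.

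Transcripts of neighbouring tissues also varied between libraries, and their part in these results was not tested. Between the genotypes, 0 genes of the lists that follow had an adjusted p under 0.05 in limma-trend, and shares at an unadjusted p of at most 0.05 are to be read against 9.29% of all tested genes lower and 2.27% higher. The pituitary list (7 of 8 genes in the table) summed to 3.45, 57.3 and 657 CPM in WT replicates 1, 2 and 3 and to 2.72 to 5.39 CPM in the 3 labelled Rag1-/-. Prl, the ligand of Prlr, had 0.0709, 8.49 and 19.2 CPM in the WT libraries and was at most 0.0635 CPM in the 3 labelled Rag1-/-, under the level of 3 reads. Gh, growth hormone, had 0.732, 43.8 and 381 CPM in the same order of WT libraries. Pomc had 1.96 and 3.19 CPM in WT replicates 1 and 2 and 246 CPM in WT replicate 3, an Xist term of -6.56 with an adjusted p of 1.32e-05 in limma-trend. Pituitary RNA and Ttr did not follow one order: WT replicate 3 had the most pituitary RNA and the least Ttr, WT replicate 2 the next most and the most Ttr, and the libraries labelled Rag1-/- had little of the former at low Ttr. The stroma and meninges list summed to 294 to 416 CPM in WT and 263 to 345 CPM in the 3 labelled Rag1-/-, with the highest sum in WT replicate 3. In it 5 of 12 genes had lower values in WT replicates 1 and 2 than in WT replicate 3 by the Xist term at an unadjusted p of at most 0.05, against 6.59% of all tested genes, and 2 (Dcn and Col1a1) were lower in the libraries labelled Rag1-/-. The 7 red blood cell genes summed to 647, 997 and 1883 CPM in WT replicates 1, 2 and 3 and to 897 to 1442 CPM in the 3 labelled Rag1-/-.

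Ependymal cells line the ventricles beside the plexus. Of their 12 genes, 11 had negative log2 fold changes between the genotypes, with a median of -0.35. They summed to 66.7, 51.5 and 51.7 CPM in WT replicates 1, 2 and 3 and to 44.7 to 58.9 CPM in the 3 labelled Rag1-/-. In 0 of the 12 did WT replicates 1 and 2 both exceed the other 4 libraries, where 13.1% of all tested genes had this pattern. The cilia genes Dnah6, Rsph1 and Cfap126 were lower in the libraries labelled Rag1-/- at an unadjusted p of at most 0.05 (log2 fold changes -0.70, -0.58 and -0.44), 3 of 12 beside 9.29% of all tested genes, and Foxj1, the regulator of motile cilia, was the 1 gene with a positive log2 fold change (0.09). The 8 endothelial genes summed to 445 to 464 CPM in WT and 411 to 446 CPM in the 3 labelled Rag1-/-, 1 (Cdh5) was lower in the latter at an unadjusted p of at most 0.05, and 4 had WT replicates 1 and 2 above the other libraries (13.1% of all tested genes). The Xist term was positive at an unadjusted p of at most 0.05 for 5 of these 8, against 5.31% of all tested genes. For Cldn5 and Slco1c1, of the tight junctions and transporters of brain endothelium, it was 0.44 and 0.53 on the log2 scale. WT replicate 3 was their lowest library. Slc2a1, of the same list, went the other way, with a term of -0.28 and its highest level, 257 CPM, in WT replicate 3.

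Genes of tissues that share Otx2 or other of the 10 genes had levels from near 0 to above those of Otx2 itself. Crx and Aanat, of the pineal and photoreceptor list, reached at most 0.189 and 0.23 CPM, and Rpe65, which defines retinal pigment epithelium, at most 0.173 CPM. Less specific genes of these lists were higher, with Rom1 at 7.25 to 9.71 CPM, Rlbp1 at 5.69 to 7.65 CPM and Rdh5 at 4.98 to 7.72 CPM. Of the other pineal and photoreceptor genes, Tph1 and Sag were highest in WT replicate 1 at 0.779 and 0.614 CPM, above the 0.0708 CPM of 3 reads. Further genes of this list peaked elsewhere, with Pde6g (0.46 CPM) and Aanat highest in WT replicate 3. Lhx4 was highest in replicate 1 labelled Rag1-/- at 0.78 CPM, and Gngt2 in replicate 2 labelled Rag1-/- at 1.77 CPM. The sum of this list was highest in WT replicate 1 (28.7 CPM), where Otx2 was highest too, but Chrna3, a gene also used by neurons, made up 16.4 CPM of it there and 6.78 and 8.39 CPM in WT replicates 2 and 3. The part of such cells in the level of Otx2 was not tested. Of 10 pineal and photoreceptor genes tested, 1 (Pde6g) was lower in the libraries labelled Rag1-/- at an unadjusted p of at most 0.05. Of 6 retinal pigment epithelium genes tested, 0 passed this threshold. Sums were 17.2 to 28.7 CPM in WT and 20.8 to 21.7 CPM in the 3 labelled Rag1-/- for the first list, and 15.4 to 16.9 and 13.0 to 16.9 CPM for the second.

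**Figure D5:**
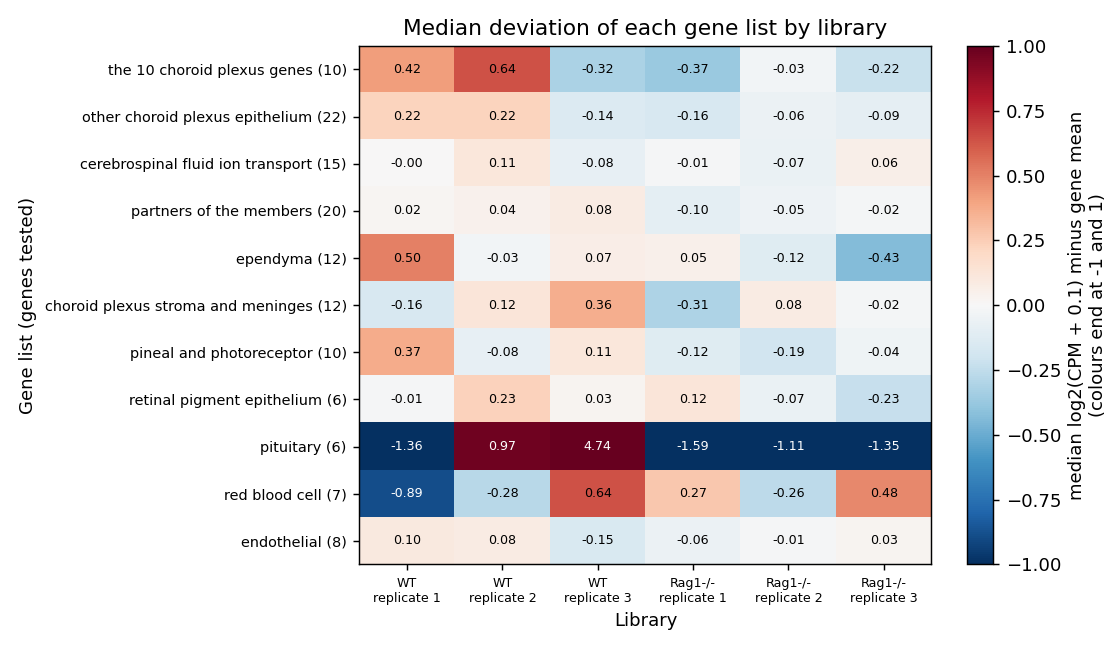
Each cell gives the median over a list's tested genes of log2(CPM + 0.1) minus the gene's mean over the 6 libraries. The 10 choroid plexus genes are at 0.42 and 0.64 in WT replicates 1 and 2 and at -0.37 to -0.03 in the other libraries, while the pituitary list reaches 4.74 in WT replicate 3.

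The genes whose pattern was most like that of Ttr were ranked by r among genes averaging 1 CPM or more. With an SD of log2(CPM + 0.1) of at least 0.5, 206 genes could be ranked. Aqp1 (r = 0.97) and Xist (r = 0.89) led, and the next were Rsc1a1, Pnp2, Zfp992, Ifit3, Sycp3, Gabrr2, Ifit1 and Gm14391 with r between 0.59 and 0.70. Most choroid plexus genes varied by less than this limit. With an SD of at least 0.3, a limit chosen after the data were seen, 781 genes could be ranked and 7 of the first 10 were choroid plexus genes of the lists (1500015O10Rik, Slc4a5, Kl, Aqp1, Kcnj13, Prlr and Sostdc1). The others were Chdh (r = 0.98), which encodes choline dehydrogenase, the collagen gene Col8a2 (r = 0.97) and the X-linked Eif2s3x (r = 0.95). Chdh had 6.7, 8.4 and 4.01 CPM in WT replicates 1, 2 and 3 and 4.2 to 4.87 CPM in the 3 labelled Rag1-/-. Eif2s3x had 168, 169.7 and 107 CPM in WT replicates 1, 2 and 3 and 107 to 109 CPM in the 3 labelled Rag1-/-.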

How the data were processed

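Total RNA of 6 mouse brainstems was sequenced on an Illumina HiSeq, all libraries in the same run per the labels. The authors aligned reads to mm10 (RefSeq transcripts) with STAR 2.5.3a, quantified them in Partek Flow, and deposited CPM, scaled to library size, in which the lowest value is 0.0001. The deposited genes hold 79.1% to 80.4% of each library's total. Genes filtered before deposit are not stated in the sources used here. The end of a gene is given as 1 base before the deposited stop, as in 70.9% of the 10271 genes whose start equals that of RefSeq.

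The worth of 1 read in CPM was read from the spacing of low values (under 20 reads), and 85.1% to 86.5% of these came out whole within 0.1 read. Whole reads were therefore not recovered and no count test was run. A level of 3 reads was 0.0646 to 0.0950 CPM, and this covers counting error only.

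The scale was log2(CPM + 0.1), on which changes of low genes are understated. A mean CPM of 0.1 or more kept 16762 genes for limma-trend (limma 3.58.1, R 4.3.3), Benjamini-Hochberg adjustment over all of them, and 1296 were not tested. The study names this model, not its pseudocount or filter. Single genes were tested with an exact permutation test (SciPy 1.17.1). The script was tested on simulated data. Transcript lengths came from GENCODE M21, promoters from RefSeq.

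The 10 genes, the lists, the Xist term and the alternatives were chosen with earlier results of these data known. Genes named were the 10, Rag1, Xist and Ddx3y, the 6 highest of each list with any at an unadjusted p of at most 0.05, the 10 most like Ttr (mean of at least 1 CPM, SD of at least 0.5), and those between Kcne2 and Clic6; other names were chosen after their values were seen, and some genes that this rule names are not reported here. Same-numbered libraries did not deviate together (correlations of 0.0926, -0.220 and -0.0183), so they were not paired.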

Additional observations from a re-analysis of the deposited data

How the results depend on the processing

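The number of the 10 genes with an adjusted limma-trend p under 0.05 was 0 in all alternatives but 1: leaving out 1 library gave 0 to 1, and the 1 (Ttr) came without WT replicate 3. The number at an unadjusted p up to 0.05 was 3, where 9.29% of all tested genes were lower. It came to 1 with quantile normalization (3.82% of all genes lower and 5.1% higher), 1 with median-of-ratios rescaling (4.15% lower and 4.98% higher) and 1 without the limma trend (7.67% lower), and 0 to 10 with 1 library left out, where the 10 came without WT replicate 3 and the 0 without replicate 1 labelled Rag1-/- (9.31% and 5.18% of all genes lower). With the Xist term it was 4, all higher in the libraries labelled Rag1-/-. For the other choroid plexus genes the number was 6, and 5 to 15 with 1 library left out. What lies behind these shifts was not tested, but each fit without a library has fewer samples. The samples share only a replicate number. With the replicate block, 5 of the 10 genes had an unadjusted p of at most 0.05 (6.59% of all genes were lower in that fit) and 0 an adjusted p under 0.05.

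Of 150 log2 fold changes of the 10 genes under the alternatives, 10 reversed, 1 passed the threshold (Ttr without WT replicate 3) and 139 kept both their direction and their side of it. With the Xist term, 8 reversed: Ttr 0.30, Kl 0.11, Folr1 0.63, Kcne2 0.58, Aqp1 0.53, Kcnj13 0.045, Slc4a5 0.055 and Prlr 0.044. With 1 library left out, Folr1 ranged from -0.63 to 0.045 and Kcne2 from -0.68 to 0.034. The number of genes with r of at least 0.9 to Ttr was 8 of 9, 6 with Spearman's rho, 8 with median-of-ratios rescaling and 6 to 8 with 1 library left out. Choroid plexus genes among the 10 most like Ttr were 1 with an SD of at least 0.5 and 7 with at least 0.3. The lowest value of the 10 genes stood for about 77 reads, and depth limits the Otx2 gap between genotypes, which is within counting error.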
